A study of Mus musculus with 12 samples.

Results

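Chemokines are the small secreted proteins that draw leukocytes into tissue, and 10 of them were followed through the liver after a high-fat diet and bariatric surgery: Cxcl1, Cxcl2, Cxcl9, Cxcl10, Cxcl12, Cxcl16, Ccl2, Ccl5, Ccl6 and Ccl9. They were taken by name from 38 chemokine genes in a table of 24910 features, with the FPKM values (fragment counts scaled for transcript length and library size) of a gene's transcripts added together. RNA and open chromatin came from the same livers of 2 male C57BL/6J mice in each of 3 groups. Control mice (Ctl in the plots) stayed on normal chow for 28 weeks and had no surgery. Sham and VSG mice were given a diet with 60 kcal% fat from 8 weeks of age, for 14 weeks before and 14 weeks after their operation. VSG, vertical sleeve gastrectomy, removes most of the stomach, while in Sham mice the stomach was only exposed and pressed, and both operated groups had a liquid diet in the first days after surgery. Control and Sham therefore differ in diet and in surgery, and the part of each cannot be told apart. No file marks the mice beyond a replicate number.

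Chemokines act through G protein-coupled receptors on leukocytes, and the pattern of cysteines at their amino end divides them into CXC and CC families. Cxcl1 and Cxcl2 bind Cxcr2 and attract neutrophils. Cxcl9 and Cxcl10 are induced by interferon and bind Cxcr3 on T and NK cells, and Ccl2 draws monocytes through Ccr2. In the liver they are made by hepatocytes, Kupffer cells, endothelium and stellate cells, and many are known as targets of NF-kappaB. In whole liver, fewer cells of a type and less RNA per cell cannot be told apart.

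The libraries held an estimated 17600000 to 40700000 fragments each, read from the spacing of low FPKM values. The 8 of 10 listed hepatocyte genes that matched the table, of which Apoa1 and Ttr made up most, summed to 15380 to 18780 FPKM in Control, 9472 to 14570 in Sham and 11990 to 16190 in VSG, while Hnf4a was listed at 0 in Sham replicate 1. Of all the gene lists read here limma called only Tat, a hepatocyte enzyme, lower than in Control in Sham (log2 difference -2.84, adjusted p = 0.0445) and in VSG (-2.47, adjusted p = 0.0679). The chow-fed liver named Control replicate 2 held the lowest value of 7 of the 10 chemokines, against 20.7% of all genes tested, and Sham replicate 1 held the highest value of 4, against 21.1%. With 2 mice a group, the smallest 2-sided p of an exact permutation test is 0.333. Changes were therefore tested with limma over all 9869 features that reached 1 FPKM in 2 or more mice. Its p-values set a difference against the spread between these mice, pooled over the 3 groups and drawn toward that of features of similar level.

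Promoters are shown for the searched CXC chemokines that held a motif match, because the matches differed among them. The 250 bases before the RefSeq start of 7 members (all but Ccl2, Ccl5 and Cxcl16, which were not used here) were searched on both strands for the NF-kappaB consensus, the interferon response core GAAANNGAA, the STAT motif TTCNNNGAA and the AP-1 motif TGANTCA. The sequences are those of RefSeq, placed in the mm9 genome (NCBIM37) by exact match, and the runs printed stop at the first annotated base of the gene. Capitals mark every match, and positions count back from the RefSeq start.
Cxcl1, chr5:91320021-91320266, plus strand: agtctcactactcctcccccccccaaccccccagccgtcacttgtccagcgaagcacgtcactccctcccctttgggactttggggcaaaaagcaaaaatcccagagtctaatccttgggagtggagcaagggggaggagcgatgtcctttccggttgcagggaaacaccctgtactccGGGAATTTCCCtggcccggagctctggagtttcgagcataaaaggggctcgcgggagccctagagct
Cxcl2, chr5:91332675-91332896, plus strand: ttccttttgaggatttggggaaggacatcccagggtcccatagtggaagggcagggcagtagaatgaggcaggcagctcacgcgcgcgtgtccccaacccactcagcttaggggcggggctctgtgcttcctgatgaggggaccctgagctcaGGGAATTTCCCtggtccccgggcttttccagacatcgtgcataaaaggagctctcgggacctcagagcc
Cxcl10, chr5:92777916-92778165, minus strand: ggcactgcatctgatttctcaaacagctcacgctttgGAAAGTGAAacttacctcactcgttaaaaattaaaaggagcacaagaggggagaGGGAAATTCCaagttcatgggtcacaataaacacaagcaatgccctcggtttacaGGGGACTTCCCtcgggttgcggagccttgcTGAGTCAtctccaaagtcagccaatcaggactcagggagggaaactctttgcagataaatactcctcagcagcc
Cxcl9, chr5:92757106-92757355, minus strand: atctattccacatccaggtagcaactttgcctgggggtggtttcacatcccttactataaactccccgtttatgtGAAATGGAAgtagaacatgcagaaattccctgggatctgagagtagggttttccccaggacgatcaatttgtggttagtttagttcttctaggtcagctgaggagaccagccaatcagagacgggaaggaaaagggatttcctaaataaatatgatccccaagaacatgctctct
Cxcl1 and Cxcl2 carry the same stretch of 11 capitals, which holds 2 overlapping NF-kappaB matches, at -71 in Cxcl1 and -97 in Cxcl2, inside the longest run the promoters share, of 14 bases. Cxcl10 holds 3 NF-kappaB matches, of which 2 overlap, with 1 GAAANNGAA and 1 TGANTCA. Cxcl9 holds 1 GAAANNGAA and none of the others.

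The NF-kappaB consensus was found before 4 of the 7 members (Cxcl1, Cxcl2, Cxcl10 and Ccl9), against 7.25% of the 32851 promoters of the same length. GAAANNGAA was found before 2 of 7 (Cxcl9 and Cxcl10, against 7.13%) and TGANTCA before 2 of 7 (Cxcl10 and Ccl9, against 6.75%). TTCNNNGAA was found before 0 of 7, with 7.02% of all promoters holding it, and the windows before Cxcl12 and Ccl6 held none of the 4 motifs. A match describes letters and was not tested as a binding site.

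FPKM is per length, so genes can be compared, and the plot of FPKM by mouse shows them in order. Cxcl12 (mean 89.8 FPKM over 6 mice) and Cxcl1 (53.9) stood far above the rest and together made up 80.6% to 90.6% of the summed chemokine FPKM in each mouse. Their own order was not fixed, since Cxcl12 exceeded Cxcl1 in 4 of 6 mice. Every Cxcl1 value lay above every value of Ccl9 (9.51), the third gene, and Ccl9 exceeded Ccl6 (5.02) in 6 of 6 mice. Below these, Cxcl10 (2.95), Ccl5 (2.26), Cxcl9 (1.76), Cxcl16 (1.65) and Ccl2 (1.19) overlapped one another, and Cxcl2 (0.726) was lowest.

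**Figure D1:**
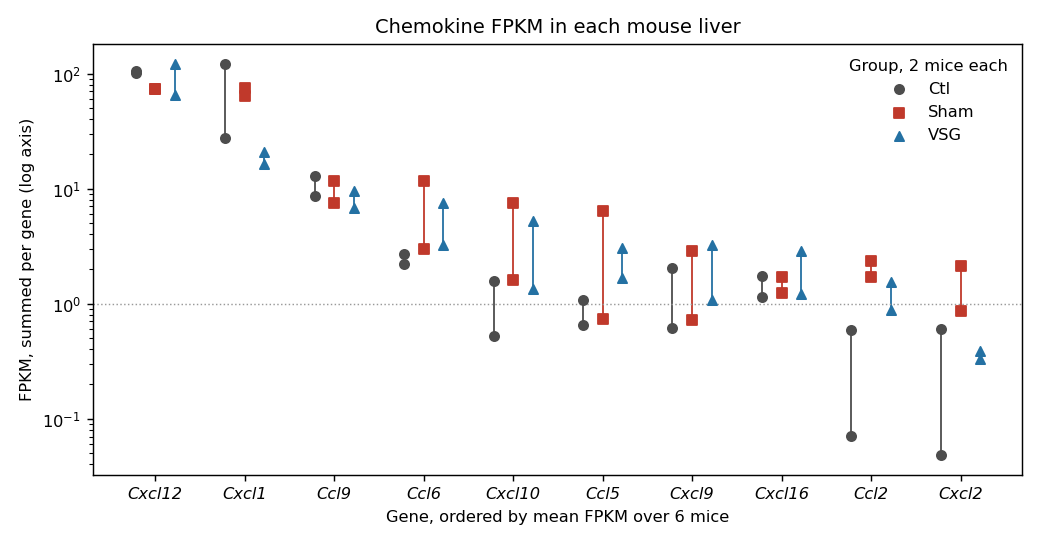
FPKM of each chemokine in each of 6 mouse livers, on a log axis, with genes ordered by mean. Points are mice, lines join the 2 mice of a group and the dotted line is 1 FPKM. Both VSG mice lay below both Sham mice for Cxcl1, Cxcl2 and Ccl2.

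Comparing Sham with Control asks how the chemokines differ after a high-fat diet together with a sham operation. At an FDR of 10% limma called 28 genes in all, 0.284% of those tested, and 0 of the 9 chemokines tested. At an unadjusted p under 0.05, 10.9% of all genes and 1 of 9 chemokines (Ccl2) passed. Both Sham mice lay above both Control mice for 4 of the 10 members (Cxcl2, Cxcl10, Ccl2 and Ccl6), against 25.4% of genes tested, and below them for 1 (Cxcl12), against 20.4%. The median log2 change over the 10 was 0.58, against 0.04 over all genes tested, with 8 of 10 above 0. It was 1.13 and 0.22 without Control replicates 1 and 2, and 0.14 without Sham replicate 1.

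Comparing VSG with Sham asks how they differ after surgery on the same diet. limma called 5 genes, 0.0507% of those tested, and 0 of 9 chemokines. At an unadjusted p under 0.05, 4.85% of all genes and 1 of 9 chemokines (Cxcl1) passed. Cxcl12 passed too when the transcript with the highest mean stood for each gene in place of the sum. Both VSG mice lay below both Sham mice for 3 members (Cxcl1, Cxcl2 and Ccl2), against 9.78% of genes, and above them for 0, against 18.5%. The median change over the 10 was -0.21, against 0.08 over all genes. It was -0.0063 and -0.50 without Sham replicates 1 and 2, and 0.22 and -0.55 without VSG replicates 1 and 2.

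Comparing VSG with Control sets the operated, high-fat livers beside chow. limma called 28 genes, 0.284%, and 0 of 9 chemokines. At an unadjusted p under 0.05, 9.56% of genes and 0 chemokines passed. Both VSG mice lay above both Control mice for 3 members (Ccl2, Ccl5 and Ccl6), against 33.7% of genes, and below them for 1 (Cxcl1), against 14.8%. Here the median of all genes was itself shifted by 0.13 on the log2 scale, and the median over the 10 chemokines was 0.35. The median over the 10 was 0.67 and 0.027 without Control replicates 1 and 2, and 0.80 and 0.0026 without VSG replicates 1 and 2. Relative to the shift of all genes, Cxcl10 differed by 0.82, Ccl5 by 0.70 and Ccl6 by 0.67. With each mouse left out, their unshifted differences ran from 0.24 to 1.65, from 0.52 to 1.13 and from 0.29 to 1.31, each lowest without VSG replicate 2. The 3 comparisons share groups, so their counts are not independent.

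**Figure D2:**
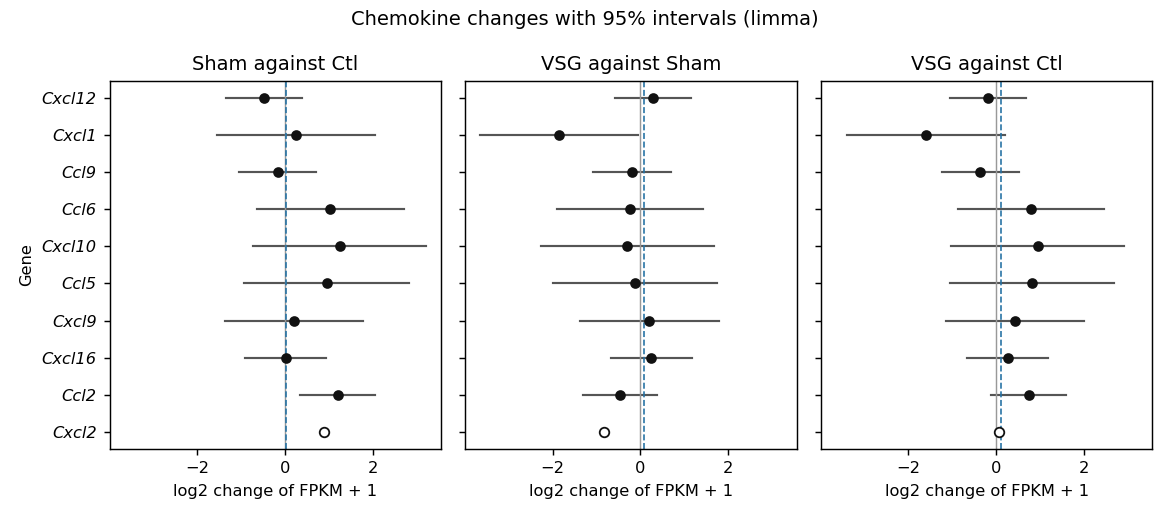
Difference between groups for each chemokine on the log2(FPKM + 1) scale, with limma's 95% interval, in 3 comparisons. The dashed line is the median of all genes tested, and the open point is Cxcl2, which did not pass the filter on low values. The intervals of Ccl2 in Sham against Control and of Cxcl1 in VSG against Sham lie to one side of 0.

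Cxcl1, a neutrophil attractant, was measured at 120.4 and 27.3 FPKM in Control, 74.9 and 63.9 in Sham, and 20.7 and 16.5 in VSG. Both VSG mice lay below all 4 other mice, the Sham mice lay close together, and the Control mice differed by 4.42-fold, one above and one below Sham. The mean was 69.4 ± 7.75 (SD, n = 2) in Sham and 18.6 ± 2.95 in VSG, 3.73-fold higher in Sham. The log2 difference of VSG from Sham was -1.85 (SE 0.70, 95% interval -3.65 to -0.05, limma adjusted p = 0.944), with an unadjusted p of 0.0461. Leaving out each mouse moved it between -2.002 and -1.69, and the adjusted p stayed above the threshold throughout. The unadjusted p was 0.00250 without Control replicate 1 and 0.159 without VSG replicate 2.

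Against Control, the values turned on which Control mouse was kept. The log2 difference of Sham from Control was 0.26 (SE 0.70, limma adjusted p = 0.909), and it was 1.31 without Control replicate 1 and -0.79 without Control replicate 2. VSG differed from Control by -1.59 (SE 0.70, adjusted p = 0.578), or -1.71 relative to the median of all genes, and by -0.54 and -2.64 without Control replicates 1 and 2. Cxcl1 rested on an estimated 378 to 2996 fragments a mouse.

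Cxcl2, a second Cxcr2 ligand made mainly by activated macrophages and neutrophils, was measured at 0.601 and 0.0482 FPKM in Control, 2.14 and 0.857 in Sham, and 0.386 and 0.327 in VSG. Both Sham mice lay above all 4 others. Only 1 mouse reached 1 FPKM, so Cxcl2 was not tested, and without the filter its log2 difference was 0.90 for Sham from Control (limma adjusted p = 0.477) and -0.83 for VSG from Sham (adjusted p = 0.885). Leaving out a mouse moved the first between 0.52, without Sham replicate 1, and 1.27, and the second between -1.21 and -0.45, the latter also without Sham replicate 1. An estimated 1.1 to 40.7 fragments lay behind each value.

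Cxcr2, the receptor of both, read 1.002 and 1.25 FPKM in Control, 1.08 and 1.02 in Sham, and 1.18 and 1.07 in VSG, and the groups overlapped. The log2 difference of VSG from Sham was 0.05, with a 95% interval of -0.54 to 0.64. Of 13 neutrophil genes in the table, of which 4 passed the filter, 9 had both Sham mice above both Control mice, against 25.4% of genes tested, and 6 had both VSG mice below both Sham mice, against 9.78%. Their summed FPKM was 7.07 to 16.0 in Control, 45.4 to 49.1 in Sham and 18.3 to 25.1 in VSG, led by S100a8 and S100a9, while Ly6g was listed at 0 in every mouse. In Control replicate 1, which had the highest Cxcl1, that sum was 16.0. The part of neutrophils in the Cxcl1 and Cxcl2 values was not tested.

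Cxcl9, an interferon-gamma target that attracts activated T cells, was measured at 2.05 and 0.613 FPKM in Control, 2.87 and 0.720 in Sham, and 1.08 and 3.26 in VSG. The groups overlapped in all 3 comparisons, and the mice of a group differed by 3.02-fold to 3.98-fold. The log2 difference of Sham from Control was 0.22 (SE 0.61, limma adjusted p = 0.913), and it was -0.24 without Control replicate 2 and -0.37 without Sham replicate 1.

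Cxcl10, induced by interferon and by NF-kappaB, was measured at 1.57 and 0.520 FPKM in Control, 7.45 and 1.61 in Sham, and 1.34 and 5.22 in VSG. Sham exceeded Control without overlap, though by a margin of 1.61 against 1.57, and VSG overlapped both. The log2 difference was 1.25 for Sham from Control (SE 0.77, 95% interval -0.73 to 3.22, limma adjusted p = 0.599) and 0.95 for VSG from Control (SE 0.77, adjusted p = 0.743). The first was 0.40 without Sham replicate 1 and 2.10 without Sham replicate 2, and the second was 0.24 without VSG replicate 2 and 1.65 without VSG replicate 1.

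For both chemokines the high mice were Sham replicate 1 and VSG replicate 2. Cxcr3, their receptor, stayed between 0.0483 and 0.273 FPKM. T and NK cell genes were low, with 0 of the 14 matched genes passing the filter. Their sums were 1.49 to 1.66 FPKM in Control, 1.89 to 3.62 in Sham and 2.40 to 5.08 in VSG. In Sham and VSG the mouse high for both chemokines also had the higher sum. In Control it did not, since both chemokines were higher in replicate 1 and the sum was higher in replicate 2. The part of those cells was not tested.

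Other interferon-gamma targets were read from a list of 17 genes. None of the 13 tested was called, but at an unadjusted p under 0.05 limma found 5 higher and 0 lower in Sham than in Control, where 10.9% of all genes passed in either direction, and 6 higher and 0 lower in VSG than in Control, where 9.56% did. The list's median log2 difference was 0.53 for Sham from Control and 0.69 for VSG from Control, against 0.04 and 0.13 over all genes, and -0.01 for VSG from Sham. Tap1, a peptide transporter, read 4.31 and 3.66 FPKM in Control, 15.0 and 9.28 in Sham, and 11.5 and 11.2 in VSG (log2 difference 1.36 for Sham from Control, SE 0.28, limma adjusted p = 0.271). Psmb9, an immunoproteasome subunit, differed by 2.62 between VSG and Control (SE 0.65, adjusted p = 0.372). Ifng itself was at or below 0.0519 FPKM in every mouse.

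Cxcl12, the constitutive ligand of Cxcr4 made by stromal and endothelial cells, was measured at 104.4 and 100.4 FPKM in Control, 73.6 and 72.8 in Sham, and 65.6 and 122 in VSG. Control and Sham did not overlap, and VSG spanned both. The mean was 102.4 ± 2.83 (SD, n = 2) in Control and 73.2 ± 0.587 in Sham, 1.40-fold higher in Control. The log2 difference was -0.48 for Sham from Control (SE 0.34, limma adjusted p = 0.633), and it ran from -0.51 to -0.45 with each mouse left out.

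The VSG values of Cxcl12 depend on how its 3 transcripts were split. One transcript, at 25.7 to 57.0 FPKM in the other 5 mice, was listed at 0 in VSG replicate 1, and another was listed at 0 in VSG replicate 2. The transcript with the highest mean read 55.9 and 64.9 in VSG, 49.2 and 47.8 in Control, and 38.5 and 39.0 in Sham. With it alone both VSG mice lay above all others, and the difference of VSG from Control turned from -0.19 to 0.31. The difference of VSG from Sham was 0.29 with the 3 summed and 0.62 with it alone. For the latter limma gave an unadjusted p of 0.0247 and an adjusted p of 0.942. Sinusoidal endothelial genes summed to 25.4 to 54.9 FPKM in Control, 9.86 to 13.1 in Sham and 38.1 to 40.1 in VSG, and stellate cell genes to 48.9 to 50.7, 19.6 to 33.0 and 58.8 to 75.1. Both sums were lowest in Sham. Clec4g, an endothelial gene of the list, read 26.12 and 4.35 FPKM in Control, 3.93 and 2.19 in Sham, and 18.51 and 17.35 in VSG. Some endothelial genes were listed at 0 in mice of every group, among them Oit3 in both Sham mice and in VSG replicate 2. Dcn was the largest part of the stellate sum in every mouse, at 40.6 and 41.7 FPKM in Control and 13.9 and 23.8 in Sham. Each list held 10 genes, of which 9 endothelial and 6 stellate genes passed the filter. Both Sham mice lay below both Control mice for 6 endothelial and 4 stellate genes, against 20.4% of genes tested. They lay above them for 0 and 1, against 25.4%. The part of these cells in the Cxcl12 values was not tested. Its receptors were low, with Cxcr4 at 0.105 to 0.833 FPKM and Ackr3 at 0.0385 to 0.259.

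Cxcl16, a membrane-bound chemokine and scavenger receptor whose partner is Cxcr6, was measured at 1.75 and 1.14 FPKM in Control, 1.70 and 1.24 in Sham, and 1.22 and 2.84 in VSG. The groups overlapped throughout. The log2 difference of Sham from Control was 0.02 (SE 0.36, 95% interval -0.90 to 0.95), and it was -0.012 under median-of-ratios scaling and -0.033 under quantile normalization, and from -0.16 to 0.20 with each mouse left out. Cxcr6 lay between 0 and 0.476 FPKM.

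Ccl2, the monocyte attractant, was measured at 0.586 and 0.0703 FPKM in Control, 2.34 and 1.70 in Sham, and 0.884 and 1.53 in VSG. The 3 groups were ordered without overlap, Sham above VSG above Control. Means were 0.328 ± 0.364 (SD, n = 2), 2.02 ± 0.451 and 1.21 ± 0.455. The log2 difference was 1.21 for Sham from Control (SE 0.33, 95% interval 0.36 to 2.05, limma adjusted p = 0.359), with an unadjusted p of 0.0148. It was -0.46 for VSG from Sham (SE 0.33, adjusted p = 0.944) and 0.74 for VSG from Control (SE 0.33, adjusted p = 0.580), or 0.62 relative to all genes. The second ran from -0.67 to -0.25 and the third from 0.46 to 1.03 with each mouse left out. With a pseudocount of 0.1 in place of 1 the difference of Sham from Control was 2.62. With the pseudocount of 1, its unadjusted p was 0.0842 without Control replicate 2 and 0.0672 without Sham replicate 1.

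Ccl2 rested on an estimated 1.2 and 12.4 fragments in the Control mice and 29.2 to 42.3 in the others. Ccr2, its receptor on monocytes, was ordered in the same way without overlap, at 0.104 and 0.0750 FPKM in Control, 0.693 and 1.08 in Sham, and 0.588 and 0.622 in VSG. Of 10 monocyte genes 4 passed the filter, while the shares set beside them are over genes that all passed it. Of the 10, 9 had both Sham mice above both Control mice, against 25.4% of genes tested. Of the 10, 9 had both VSG mice above both Control mice, against 33.7%. Their sums were 12.7 to 15.5 FPKM in Control, 44.0 to 122.3 in Sham and 29.6 to 64.0 in VSG, with Lyz2 the highest of the 10 in every mouse. The part of monocytes in the Ccl2 values was not tested.

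Ccl5, a T cell and macrophage attractant, was measured at 1.08 and 0.647 FPKM in Control, 6.38 and 0.737 in Sham, and 1.66 and 3.05 in VSG. The Sham mice differed by 8.66-fold, the widest spread within a group outside Control, and Sham replicate 2 lay between the Control mice. The log2 difference of Sham from Control was 0.95 (SE 0.73, limma adjusted p = 0.656) and was -0.091 without Sham replicate 1 and 1.996 without Sham replicate 2. Both VSG mice lay above both Control mice, with a difference of 0.83 (SE 0.73, adjusted p = 0.758), or 0.52 without VSG replicate 2. Ccl5 rested on an estimated 15.0 and 7.5 fragments in Control, 59.9 and 12.0 in Sham, and 35.9 and 38.9 in VSG. VSG differed from Sham by -0.13, by 0.015 with a pseudocount of 0.1, and by 0.92 and -1.17 without Sham replicates 1 and 2.

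Ccl6, a myeloid chemokine of rodents that binds Ccr1, was measured at 2.69 and 2.20 FPKM in Control, 2.96 and 11.5 in Sham, and 3.21 and 7.49 in VSG. All 4 mice on the high-fat diet lay above both Control mice, and a single mouse was high in each operated group. The log2 difference was 1.04 for Sham from Control (SE 0.65, limma adjusted p = 0.606) and 0.80 for VSG from Control (SE 0.65, adjusted p = 0.743). The first was 0.21 without Sham replicate 2 and 1.87 without Sham replicate 1, and the second was 0.29 without VSG replicate 2 and 1.31 without VSG replicate 1.

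Ccl9, its close relative, was measured at 12.9 and 8.63 FPKM in Control, 7.47 and 11.7 in Sham, and 6.76 and 9.60 in VSG. The groups overlapped throughout, and the log2 differences were -0.16 for Sham from Control and -0.19 for VSG from Sham (SE 0.34 each, limma adjusted p = 0.884 and 0.989). The first was 0.13 without Sham replicate 1 and the second 0.098 without Sham replicate 2. It had the narrowest range of the CC chemokines, 1.92-fold from the lowest mouse to the highest.

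Ccr1 stayed between 0.0671 and 0.768 FPKM, highest in Sham replicate 2, which also had the highest Ccl6. All 13 Kupffer cell genes passed the filter. Their sums were 40.9 to 58.3 FPKM in Control, 130.6 to 141.3 in Sham and 109.1 to 350.3 in VSG, highest in VSG replicate 2, and their part in the CC chemokine values was not tested.

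**Figure D3:**
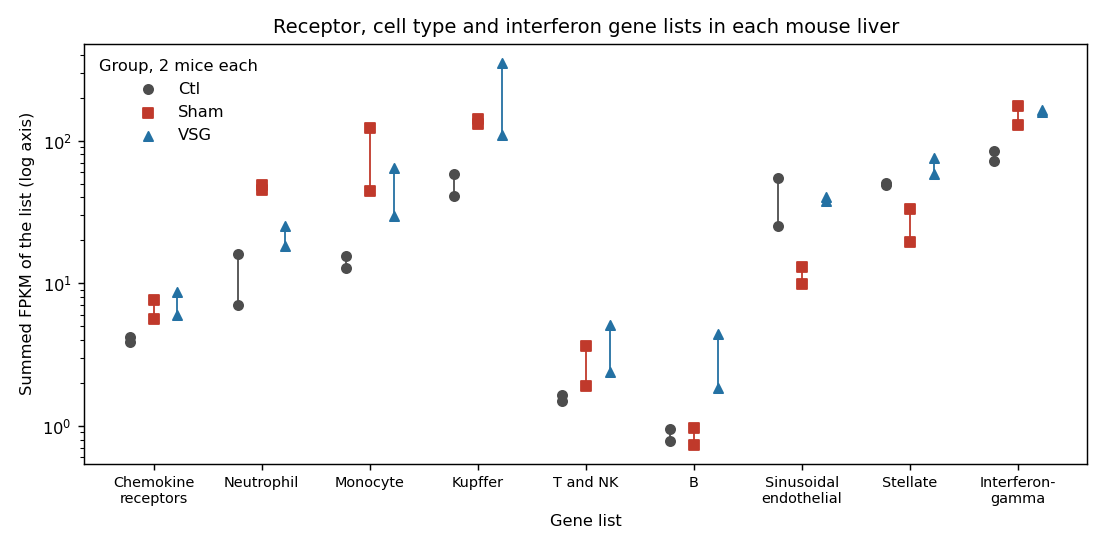
Summed FPKM of receptor, cell type and interferon-gamma target lists in each of 6 livers, on a log axis. Points are mice and lines join the 2 mice of a group. Neutrophil sums were 45.4 to 49.1 in Sham against 18.3 to 25.1 in VSG, and endothelial sums were lowest in Sham.

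Most other genes of the chemokine system were low. Of 28 other chemokine genes, 4 were listed at 0 in all mice and 3 passed the filter, and none was called in any comparison. Cxcl14 read 10.4 FPKM in Sham replicate 2 and at most 2.44 elsewhere. Cxcl13, the B cell attractant, read 2.07 and 1.60 in Sham and 0.0944 and 1.04 in VSG (log2 difference -0.92, SE 0.51, limma adjusted p = 0.944), and Ccl25 differed by -0.43 (SE 0.52, adjusted p = 0.963). Of 23 chemokine receptor genes, 2 passed the filter.

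NF-kappaB feedback and target genes gave 0 calls among 15 tested of 19. At an unadjusted p under 0.05, 2 were higher in Sham than in Control (Lcn2 and Nfkbie), 1 was higher in VSG than in Control (Birc3, listed at 0 in both Control mice) and 0 passed between VSG and Sham, against 10.9%, 9.56% and 4.85% of all genes. Lcn2, an iron-binding acute phase protein, read 154 and 108.5 FPKM in Control, 1932 and 5279 in Sham, and 2069 and 214 in VSG, so the VSG mice divided (log2 difference 4.62 for Sham from Control, SE 1.16, limma adjusted p = 0.332). Nfkbia, the classical inhibitor, read 26.4 to 32.6 FPKM in Control, 22.7 to 31.3 in Sham and 21.2 to 29.9 in VSG. The list's median difference was 0.17 for Sham from Control, against 0.04 over all genes, and -0.07 for VSG from Sham, against 0.08.

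Likeness of profile was read as Pearson's r of log2(FPKM + 1) over 6 mice, a description in which the mice of a group share their diet and surgery. For Cxcl1 the nearest of 9867 genes were Zmym2 (r = 0.978), Kin (0.969) and Safb (0.967), with 20 genes above 0.9, and the first 2 of these were listed at 0 in Control replicate 2 and both VSG mice. For Cxcl9 they were Ndufs1 (0.978), Rps9 (0.977) and Polr1b (0.974), with 55 above 0.9. For Ccl2 they were Slc51b (0.981), Rusf1 (0.980) and Phyhd1 (0.979), with 120 above 0.9. Ndufs1 too was listed at 0 in 3 mice.

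Open chromatin was read from FAIRE-seq, in which DNA freed of crosslinked protein marks accessible sites. One peak list was deposited per group, with 42204 peaks for Control, 52881 for Sham and 44539 for VSG, each combining both mice, so peaks carry no error. Peak height (F-seq signal) is not scaled between lists, and a peak is described by its percentile within its own list. The Sham list is the longest, so the same position in the list gives a higher percentile there. A peak lay within 1000 bp of a start for 5 of 10 members in Control (Cxcl1, Cxcl10, Cxcl12, Cxcl16 and Ccl2), against 90.5% of 8413 genes tested in RNA, for 6 in Sham (the same with Ccl9), against 90.2%, and for 5 in VSG, against 91.4%. Cxcl2, Cxcl9, Ccl5 and Ccl6 had none in any list. Within 10 kb of the genes lay 22, 27 and 21 peaks, and with each list held to its 42204 highest peaks 22, 20 and 21, so that Sham went from the most to the fewest.

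Cxcl1 (chr5:91320267-91322141) and Cxcl2 (chr5:91332897-91334935) lie side by side, and the plot of their peaks shows the region in each group. The Cxcl1 promoter peak spanned 1284 bp in Sham, 869 in Control and 899 in VSG, and covered the NF-kappaB stretch printed above in every list. It stood at the 85.6th percentile in Control, the 91.1st in Sham and the 75.2nd in VSG. The peak at -6.2 kb stood at 29.0, 87.2 and 56.3, the one at -2.4 kb at 54.9, 74.8 and 34.0, and the one at 8.3 kb, between the genes, at 15.6, 64.2 and 26.8. The peak at 9.1 kb stood at 38.0, 42.8 and 9.12, and like the one at 8.3 kb it lay nearer to the start of Cxcl2. Each of these 5 percentiles was highest in Sham, against 47.4% of the 32716 peaks present in all 3 lists. By position in the list the peak at 9.1 kb stood higher in Control, at rank 26170, than in Sham, at rank 30270. A peak whose Sham summit lay at 3119 bp stood at 27.4 in Control and 37.0 in Sham and was not in the VSG list. Peaks beyond 1000 bp of a start were picked out after their values were seen.

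**Figure D4:**
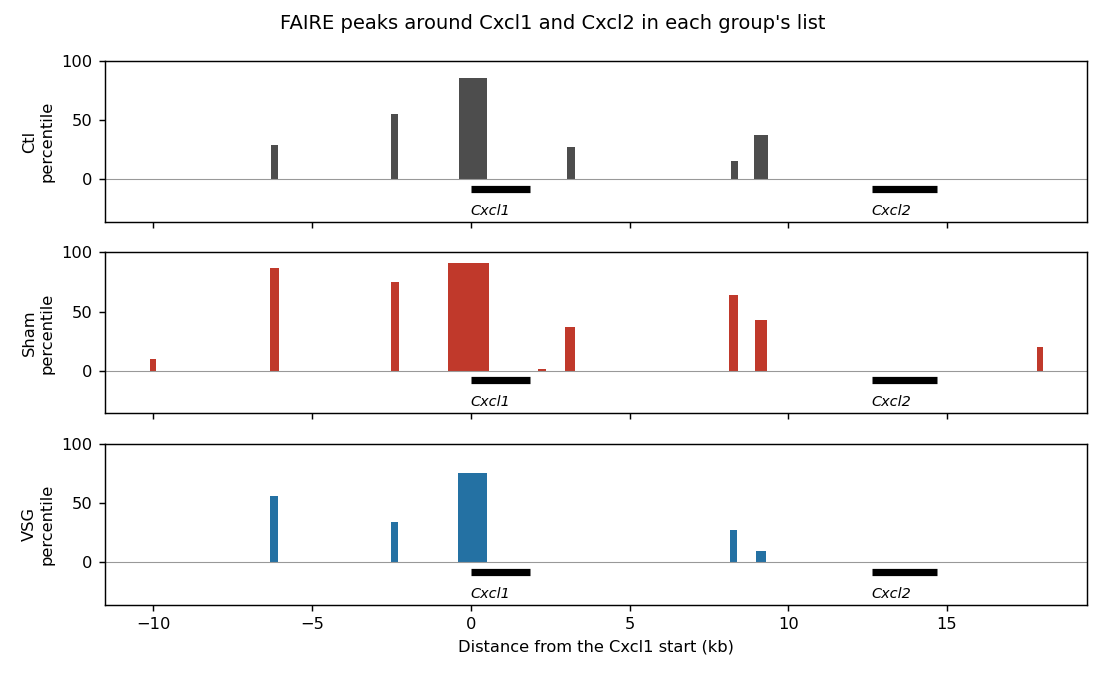
FAIRE peaks around Cxcl1 and Cxcl2 in the Control, Sham and VSG lists, by distance in kb from the Cxcl1 start. Bars span each peak and rise to its percentile within its own list, and black bars mark the genes. The peaks at -6.2 and 8.3 kb reach 87.2 and 64.2 in Sham, above both other lists.

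The 200 bases around the Sham summit are printed for these sites because their percentile differed most between lists in the region, and neither window held any of the 4 motifs.
Cxcl1 at -6.2 kb, chr5:91313985-91314184, plus strand: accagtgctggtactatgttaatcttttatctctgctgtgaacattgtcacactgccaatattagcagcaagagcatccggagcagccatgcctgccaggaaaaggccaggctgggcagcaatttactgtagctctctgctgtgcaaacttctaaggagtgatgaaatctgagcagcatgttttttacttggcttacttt
Cxcl1 at 8.3 kb, chr5:91328425-91328624, plus strand: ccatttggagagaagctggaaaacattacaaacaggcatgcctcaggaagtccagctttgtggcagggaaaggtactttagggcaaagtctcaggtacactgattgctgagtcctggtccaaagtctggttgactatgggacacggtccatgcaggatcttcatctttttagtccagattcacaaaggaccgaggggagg
Among 200-base windows around all 52881 Sham summits, 4.52% held the NF-kappaB consensus, 4.72% GAAANNGAA, 5.68% TTCNNNGAA and 8.61% TGANTCA. That these letters are not in a window says nothing of the factors.

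In the same build the other genes lie at chr5:92750357-92757105 (Cxcl9), chr5:92775664-92777915 (Cxcl10), chr6:117118553-117131385 (Cxcl12), chr11:70267485-70273486 (Cxcl16), chr11:81849073-81850955 (Ccl2), chr11:83339280-83344020 (Ccl5) and chr11:83386421-83392138 (Ccl9). The Cxcl10 promoter peak (chr5:92777746-92778171 in Sham) stood at 78.0, 92.4 and 85.1 in Control, Sham and VSG. The Ccl2 promoter peak (chr11:81848876-81849224 in Sham) stood at 49.7, 65.4 and 77.2, highest in VSG, and a second peak at -2437 bp was found in the Sham list only. The Ccl5 peak at -4.3 kb, the nearest to its start, stood at 42.5, 94.5 and 69.4.

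The Cxcl12 promoter peak (chr6:117117932-117118814 in Sham) stood at 73.6 in Control, 44.6 in Sham and 70.4 in VSG, lowest in Sham. The other 3 Cxcl12 peaks found in all lists had their highest percentile in Sham. They stood at 46.4, 58.6 and 50.0 (-1.5 kb), 9.82, 51.0 and 19.9 (1.6 kb), and 68.0, 75.9 and 63.0 (4.1 kb). By position in the list the peak at -1.5 kb stood close together, at ranks 22639, 21878 and 22266. In Sham it reached within 1000 bp of the start. An exon peak at 36.8 in Control and 47.2 in VSG, with summits at 5504 and 5522 bp, was not in the Sham list. The Cxcl16 promoter peak (chr11:70272944-70273685 in VSG) was weak in all lists, at 25.9, 18.5 and 25.4. The Ccl9 promoter peak (chr11:83391907-83392289) was found in Sham alone, at the 15.7th percentile, and with the lists held to the same number of peaks it was lost with that of Cxcl16, which left 4 members in Sham. The Cxcl9 peaks lay in its 3′ UTR, and Ccl6 (chr11:83401384-83406589) had only peaks nearer to Ccl9.

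Over peaks present in all 3 lists, the Sham percentile exceeded both others at 15 of 20 within 10 kb of a member, against 47.4% of all 32716. Ranked by position in the list instead, which was chosen after seeing the data, the count was 13 of 20, against 11008 of 32716. The median gain of Sham over Control was 12.5 percentile points near the members and 2.68 over all peaks, and over VSG 13.8 and 2.95. The 20 peaks are not independent, as 5 of them surround Cxcl1 and Cxcl2, and 2 of the 3 near Cxcl16 lie nearer to Arrb2 and Med11. No variable site of the study's lists lay within 100 kb of a member, the nearest being 524183 bp from Cxcl1. Those lists held 99 sites higher in Sham and 414 higher in VSG, and 61 and 175 reversible ones. The share of all genes with a site that near was not counted.

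**Figure D5:**
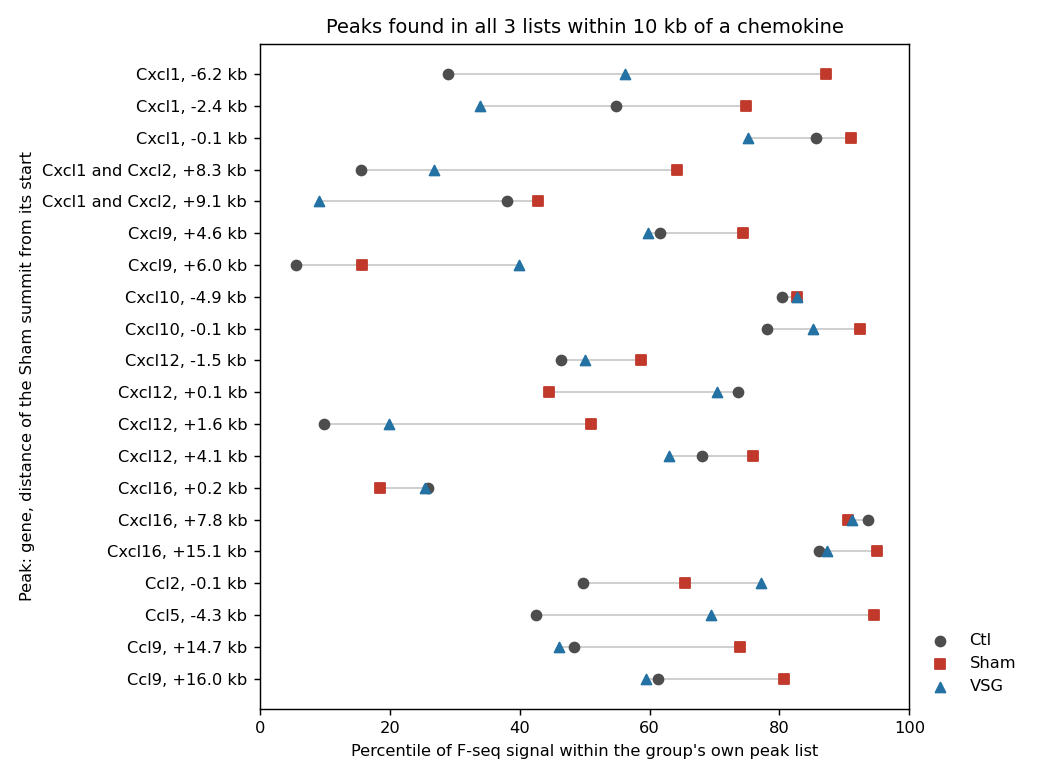
Percentile of F-seq signal within each group's own list, for the 20 peaks found in all 3 lists within 10 kb of a chemokine. Rows name the gene and the distance of the Sham summit from its start, and points are the Control, Sham and VSG lists. Sham is highest at 15 of 20 and lowest at 3, the promoters of Cxcl12 and Cxcl16 and the Cxcl16 peak at 7.8 kb.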

How the data were processed

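RNA-seq and FAIRE-seq were measured in 6 livers each, grouped by the labels. For RNA, the authors aligned reads to mm9 with TopHat2 and deposited FPKM per RefSeq transcript from Cufflinks. The labels name poly(A) enrichment and the study's methods ribosomal RNA depletion. Of 34933 transcripts, 34046 matched a symbol in RefSeq (GRCm38.p6, used for names) and were summed per gene. For FAIRE, the authors aligned reads with Bowtie, called peaks with F-seq and kept those reproducible between both mice by IDR; the deposited signal column was used to rank peaks within a list, with 1-based mm9 coordinates and GENCODE M1 genes. The deposited lists of variable sites hold positions only. The authors' DESeq2 tables hold means, fold changes and p-values of their own comparisons and were not used.

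Genes that reached 1 FPKM in 2 or more mice were tested on log2(FPKM + 1) with limma's trended moderated test (limma 3.58.1, R 4.3.3), all 3 groups in 1 fit, Benjamini-Hochberg over all 9869 features, FDR 10%. FPKM values are not counts, so no count test was run. A fold change on this scale understates low genes. The test and the motif search were checked on simulated data. Named genes were the 10 members, their receptors (1 is not reported here), up to 2 genes of smallest p per list and comparison, and the 3 most alike genes for Cxcl1, Cxcl9 and Ccl2. Marker genes, Nfkbia, Ifng and Tat lie outside this rule and were named after their values were seen. The members and lists were chosen with earlier results of these data known. Alternatives were the pseudocount, filters, transcript choice, scalings, a replicate block, 2-group fits, leaving out each mouse, and peak windows and thresholds.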

Additional observations from a re-analysis of the deposited data

How the results depend on the processing

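With 2 mice a group, the unadjusted 95% intervals of the tested chemokines reached 0.85 to 1.98 to either side on the log2 scale. These are not limits of detection at an FDR of 10%. Ccl2 in Sham against Control (1.21) and Cxcl1 in VSG against Sham (-1.85) exceeded the reach of their own intervals and were not called. A gene that was not called is therefore not shown to be unchanged. In all 14 alternatives 0 chemokines were called in each comparison. The number of genes called moved more. Without the filter it was 64 for Sham against Control, with a pseudocount of 0.1 it was 8 for VSG against Sham, and with only the 2 groups compared it was 9 for VSG against Sham and 44 for VSG against Control. Leaving out a mouse gave 0 to 168, 0 to 76 and 0 to 34 genes for Sham against Control, VSG against Sham and VSG against Control: 0 without either Control mouse, 55 and 168 without Sham replicates 1 and 2 in the first, 9 without either Control mouse, 32 and 76 without Sham replicates 1 and 2 and 0 without either VSG mouse in the second, and 0 without either Control mouse, 10 and 5 without VSG replicates 1 and 2 in the last.

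With a replicate block the counts were 9, 0 and 10, against 28, 5 and 28. Deviations of same-numbered mice correlated at 0.118, 0.039 and 0.064, so the numbers were not taken to pair the mice.

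Of 30 chemokine differences, 14 kept their sign in every alternative. Outside the mice left out, signs turned for Cxcl16 in Sham against Control (-0.012 by median-of-ratios, -0.033 by quantile normalization), Ccl5 in VSG against Sham (0.015 with a pseudocount of 0.1) and Cxcl12 in VSG against Control (0.31 with the main transcript). Leaving out each mouse in turn gave for Sham against Control -0.45 to 0.13 for Ccl9, -0.79 to 1.31 for Cxcl1, -0.37 to 0.80 for Cxcl9, -0.16 to 0.20 for Cxcl16, -0.091 to 1.996 for Ccl5, for VSG against Sham -1.15 to 0.55 for Cxcl10, -1.17 to 0.92 for Ccl5, -0.38 to 0.79 for Cxcl9, -1.07 to 0.59 for Ccl6, -0.48 to 0.10 for Ccl9, -0.15 to 0.73 for Cxcl12, -0.15 to 0.64 for Cxcl16, and for VSG against Control -0.24 to 0.37 for Cxcl2, -0.092 to 0.94 for Cxcl9, -0.63 to 0.25 for Cxcl12, -0.13 to 0.66 for Cxcl16. The cause was not tested.

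Within 5000 bp of a start, 8 members had a peak in Control and 9 in VSG, and within 50 kb of the genes lay 38, 52 and 40 peaks in Control, Sham and VSG. Among the 50% of peaks with the highest signal, 3 members had a promoter peak in Control, and 9, 16 and 11 peaks lay near the genes, while lists of equal length gave 22, 20 and 21.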
